A study of Mus musculus with 2 samples.

Results

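The laminin chains, the integrin subunits and the proteins that link laminins to the rest of the basement membrane were examined across the cells of aged mouse hindlimb muscle. Genes were chosen by a rule on symbols alone that used no levels, although earlier results of these data were known. All laminin alpha, beta and gamma chains, all integrin alpha and beta subunits, the nidogens Nid1 and Nid2, perlecan (Hspg2) and agrin (Agrn) were taken, which gave 41 of the 32285 genes in the matrices. They are 11 laminin chains, 26 integrin subunits (18 alpha and 8 beta) and 4 linkers. All 41 were matched by gene identifier to GENCODE M21 (GRCm38), where their gene bodies run from 10795 bases (Lamb2) to 639723 bases (Lama2, chromosome 10, 26980036 to 27619758, minus strand).

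A basement membrane is a thin sheet of matrix that wraps muscle fibers, capillaries and nerves. Laminins are trimers of an alpha, a beta and a gamma chain that assemble on the cell surface into a network, and nidogen, perlecan and agrin tie this network to collagen IV and to cells. Integrins are paired alpha and beta receptors through which cells hold on to laminins, collagens and other matrix proteins, and leukocytes use a further set of integrins to bind other cells. In muscle, laminin with the alpha 2 chain surrounds the fiber, and its loss causes congenital muscular dystrophy.

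The data are 2 droplet single-cell RNA-Seq libraries of dissociated hindlimb muscle from 24-month-old female C57Bl/6J mice. Muscles of the ATRA+agonist library received 3 intramuscular injections of ATRA, a natural ligand of retinoic acid receptors, together with CD3254, which activates RXR-alpha, and BMS961, which activates RAR-gamma. Muscles of the other library received DMSO vehicle, and the comparison asked what stimulation of retinoic acid signaling changes in old tissue. Each library pooled cells of 2 mice, so there is 1 library per group, no test could be run, and a difference below is a difference between 2 libraries. Mature muscle fibers are too large for droplets and are represented here at most by fragments.

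The libraries held 65197625 and 109343486 UMIs (counted molecules), of which 6907 and 6953 cells were kept, with a median of 4695 and 4847 UMIs per cell. Only 9 kept barcodes occurred in both libraries. Cells were grouped in 24 clusters without use of the 41 genes, and clusters were named from markers with the ending "-like". Levels are CPM, a gene's share of all UMIs of a cell class in 1 library on the usual CPM scale, and every pair of values below gives ATRA+agonist first and DMSO vehicle second. All intervals are 95% counting intervals that cover counting error only, not the spread among mice or among cells. As a reference for free RNA, barcodes with under 300 genes were summed, and there no member was above 48.5 CPM with ATRA+agonist or 40.1 with vehicle.

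The starts of 4 leukocyte integrin genes are shown first, because leukocyte integrins divided the immune from the other classes in the values that follow. Promoter sequences of 26 of the 41 genes were found in the RefSeq table used (GRCm38.p6). Each sequence is the 120 bases before the start, 5′ to 3′ on the strand of the gene, for Itga4 (chr2:79255306-79255425, plus strand), Itgb7 (chr15:102231936-102232055, minus strand), Itgam (chr7:128062520-128062639, plus strand) and Itgax (chr7:128129430-128129549, plus strand). Capitals mark GAGGAA, on either strand, a core sequence of the myeloid and B cell transcription factor PU.1.
Itga4: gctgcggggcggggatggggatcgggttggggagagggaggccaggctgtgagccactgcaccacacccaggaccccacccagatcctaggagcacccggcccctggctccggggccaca
Itgb7: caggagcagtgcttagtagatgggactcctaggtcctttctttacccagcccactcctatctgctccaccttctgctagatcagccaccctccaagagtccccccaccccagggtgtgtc
Itgam: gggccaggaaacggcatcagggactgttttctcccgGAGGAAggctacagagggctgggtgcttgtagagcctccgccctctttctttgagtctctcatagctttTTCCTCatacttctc
Itgax: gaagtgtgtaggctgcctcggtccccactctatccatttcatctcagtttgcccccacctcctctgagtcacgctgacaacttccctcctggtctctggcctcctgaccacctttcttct
Itgam held 2 matches in this window and the other three held 0. Over the whole promoters (250 bases before to 50 after the start), GAGGAA was in 15 of the 30 promoters of members (50%) and in 28.3% of all 32851 promoters. AGGTCA, the core sequence bound by retinoic acid receptors, was in 0 of 30 against 16.3% of all promoters. Direct repeats of AGGTCA with 1 to 5 bases between them were in 0 of 30 against 0.0791%. These are counts of letters in short windows and say nothing about binding.

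The non-immune classes differed in their laminin alpha chains. Lama2, the alpha chain of the laminin around muscle fibers, was at 1465 and 1516 CPM in FAP-like cells (fibro-adipogenic progenitors), which are mesenchymal cells of the interstitium. Muscle stem cell-like (MuSC-like) cells had 1362 and 1283 CPM and were next, with intervals apart from those of FAP-like cells in both libraries. This order is of whole classes. The small MuSC-like cluster 23 (64 and 40 cells) had 3567 and 2723 CPM, and the larger cluster 5 had 1207 and 1240. Unnamed cluster 21, which was not ranked, had 2577 and 2736 CPM. Smooth muscle or pericyte-like cells had 836 and 681 CPM, tenocyte-like cells 625 and 910, and Schwann-like cells 583 and 570. Lama2 was therefore high in 5 of the 6 non-immune classes ranked. Myonuclei-like cells, which held 220 cells of the ATRA+agonist and 0 of the vehicle library and were not ranked, had 8 UMIs of all laminin alpha chains together, 22.0 CPM. Endothelial-like cells had 2.15 and 2.01 CPM. T cell-like cells had 0 UMIs in both libraries, where 3 UMIs would be 1.45 and 5.28 CPM.

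Lama4, a chain of vessel and nerve basement membranes, had another limit. It was at 392 and 463 CPM in Schwann-like cells, at 276 and 263 in endothelial-like cells and at 288 and 241 in FAP-like cells, but at only 2.70 and 0.754 in MuSC-like cells. Among laminin alpha chain UMIs, Lama4 made up 71.2% in endothelial-like cells (95% Clopper-Pearson interval 70.0% to 72.3%, both libraries summed). Lama2 made up 95.6% of them in MuSC-like, 84.8% in FAP-like cells and 82.0% in the smooth muscle or pericyte-like class. Such shares set different genes beside each other and depend on how well each transcript is captured, whereas the difference between classes for 1 chain does not.

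**Figure D1:**
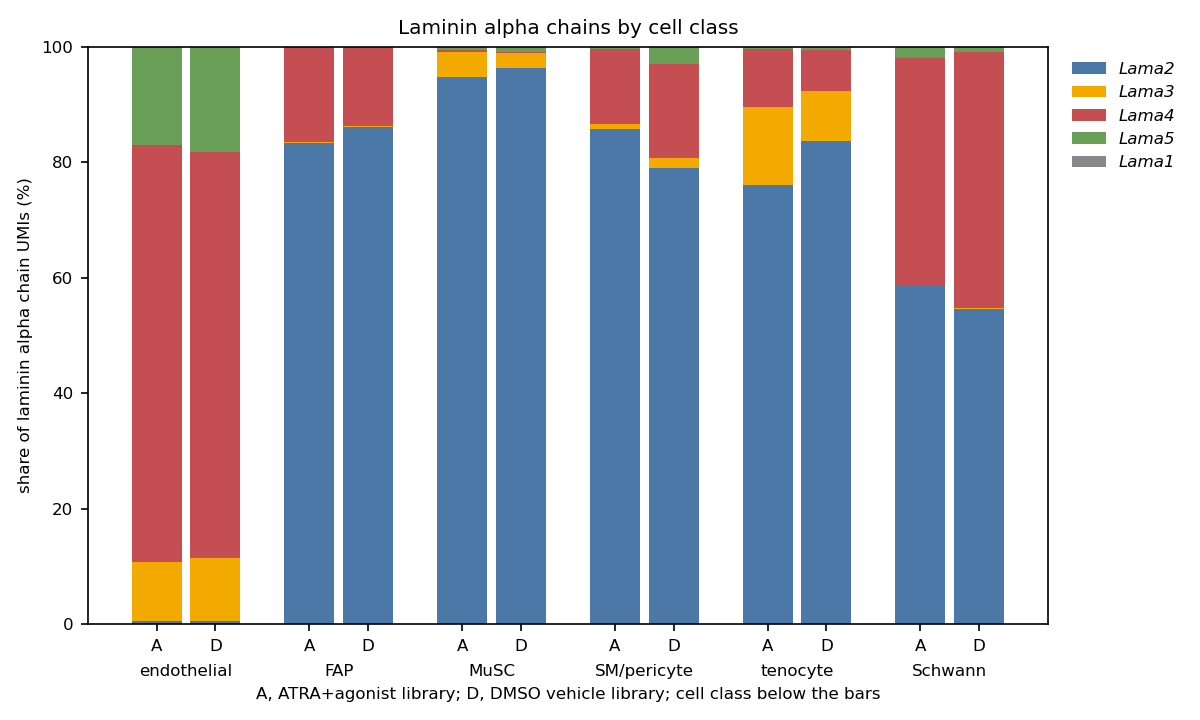
Share of laminin alpha chain UMIs (percent, stacked to 100) held by each chain in 6 non-immune cell classes, with the ATRA+agonist library on the left and the DMSO vehicle library on the right of each pair. Lama4 and Lama5 fill most of the endothelial bars, Lama2 fills 94.9% and 96.3% of the MuSC bars, and the Schwann bars are shared by Lama2 and Lama4.

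Lama5, a vascular and epithelial chain, was highest in endothelial-like cells, at 65.2 and 68.1 CPM. Lama3, a chain best known from the skin, had 3 sources with 30 or more CPM in both libraries. Tenocyte-like cells were highest with 110 and 94.2 CPM, followed by MuSC-like cells with 62.2 and 36.2 and endothelial-like cells with 39.2 and 41.2. Lama1, an alpha chain of embryonic tissue, was close to absent, with 10 UMIs in all kept cells.

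Beta and gamma chains differed among classes as well. Lamb1 was highest in FAP-like cells (243 and 198 CPM) and low in tenocyte-like cells (5.60 and 10.9). Lamb2, the beta chain of mature muscle and of the neuromuscular junction, was at 154 and 134 CPM in FAP-like and at 143 and 144 in tenocyte-like cells, whose intervals overlapped. In tenocyte-like cells Lamb2 made up 95.7% and 92.6% of beta chain UMIs. Lamb3, a chain of epithelial laminin, was at 184 and 85.4 CPM in B cell-like and at 81.2 and 96.8 CPM in T cell-like cells, and at 4.61 CPM or less in the 8 other classes ranked. Its gene model on chromosome 1 (193207699 to 193343878, plus strand) overlaps 6 other annotated genes, none of them a coding gene on the same strand. Lama3, a chain that pairs with Lamb3 in epithelial laminin, was at 0.713 and 0 CPM in B cell-like cells.

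Lamc1, the gamma chain of most laminins, was at 475 and 445 CPM in FAP-like cells and at 102 or more in the other non-immune classes ranked. It was also present in B cell-like cells, at 162 and 141 CPM. Lamc3 had a low level in tenocyte-like (8.79 and 16.04) and smooth muscle or pericyte-like cells (9.97 and 9.94).

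The linkers were transcribed mainly by FAP-like, vascular and glial cells. Nid1, a nidogen that joins laminin to collagen IV, was at 826 and 779 CPM in FAP-like cells and at 362 and 290 in the smooth muscle or pericyte-like class. Nid2 was highest in Schwann-like cells (107 and 82.9), followed by FAP-like cells (85.1 and 64.7), with overlapping intervals in the ATRA+agonist library and separate ones in the vehicle library. Hspg2, the heparan sulfate proteoglycan perlecan, was at 436 and 384 CPM in endothelial-like, 408 and 346 in FAP-like and 319 and 244 in Schwann-like cells. Agrn, which organizes acetylcholine receptors at the neuromuscular junction, was at 41.1 and 64.8 CPM in Schwann-like and at 36.5 and 35.0 in endothelial-like cells. MuSC-like cells, high in Lama2, had at most 8.29 CPM of Agrn and 11.3 of Nid1.

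**Figure D2:**
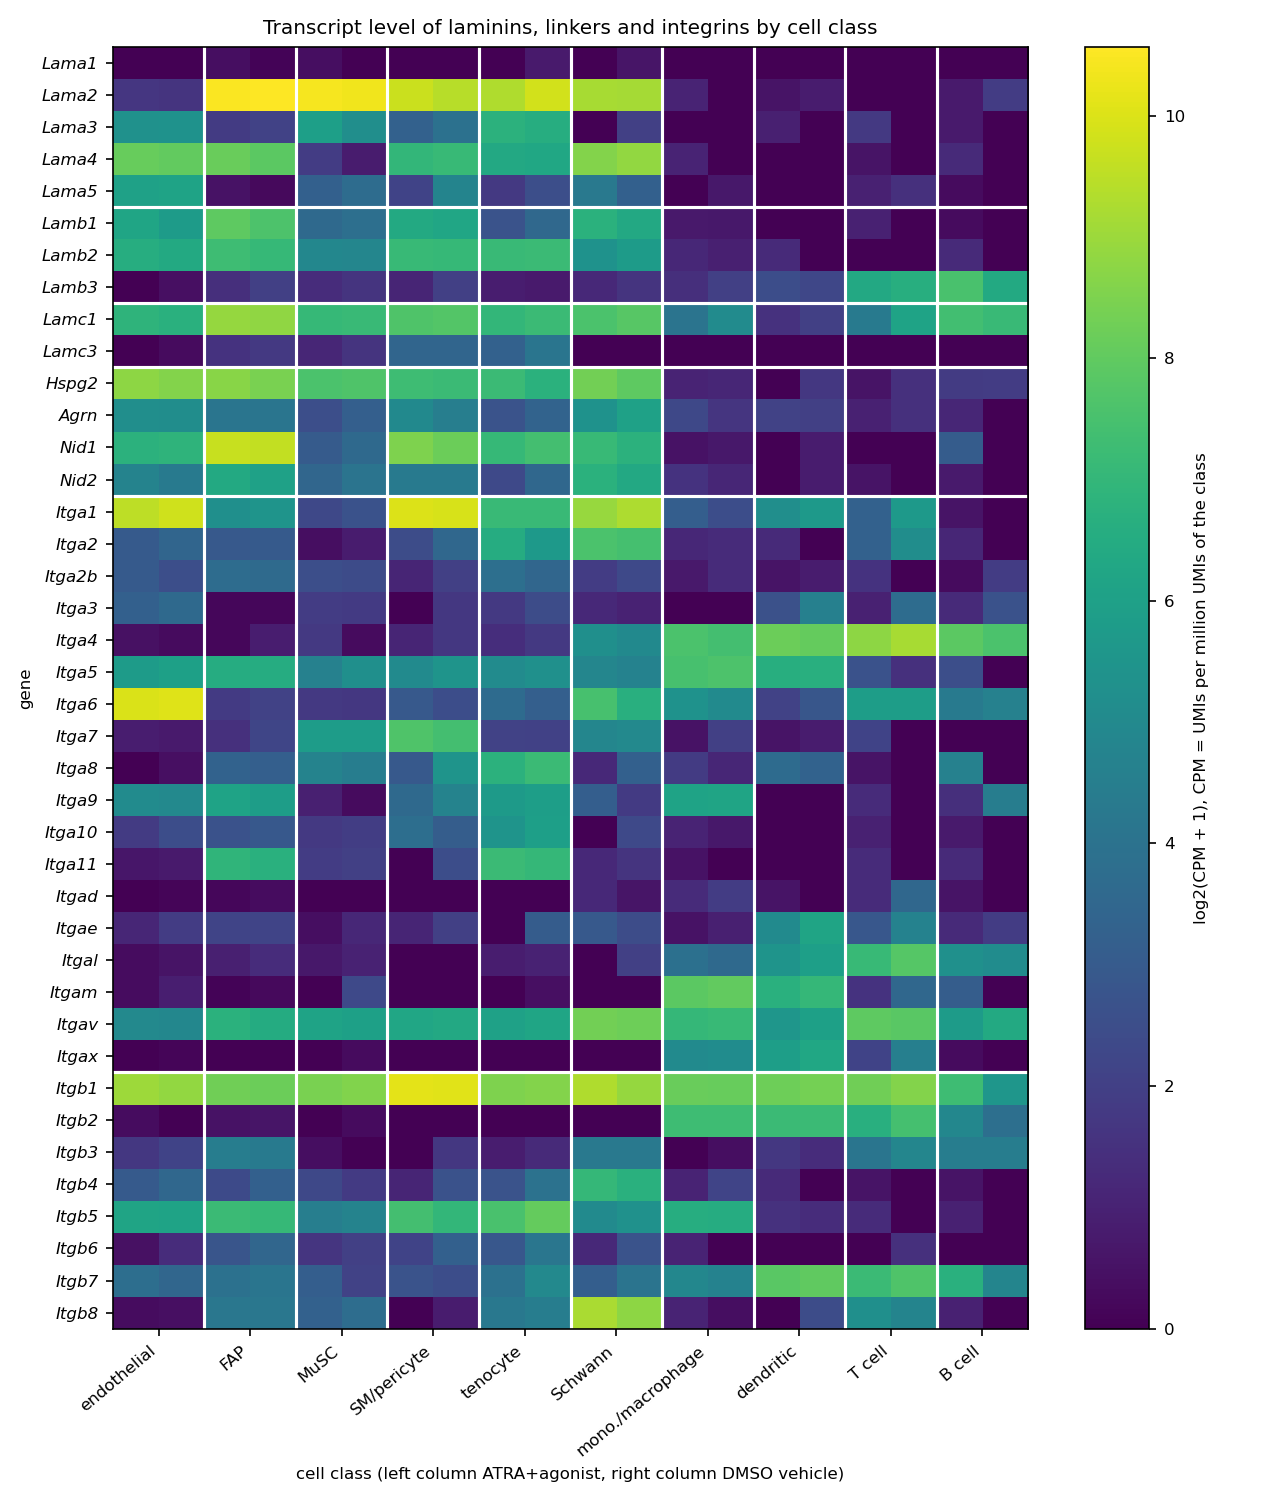
Level of 40 of the 41 genes, as log2(CPM + 1) by color, in 10 cell classes with at least 50 cells per library, with the ATRA+agonist library as the left and the DMSO vehicle library as the right column of each class. Laminins and linkers are bright in the first 6 classes, Lamb3 in T and B cell classes, and Itgb2 in the last 4.

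Of the integrins that bind collagen, Itga1 was at 1045 and 968 CPM in smooth muscle or pericyte-like cells, where it made up 72.4% of alpha subunit UMIs. Endothelial-like cells followed with 739 and 892, and Schwann-like cells with 492 and 615. Itga1 overlaps 2 other coding genes on its strand, Pelo and Gm49395, so that its reads may be shared with them. The other three collagen-binding subunits were held by other classes. Itga2 was at 192 and 172 CPM in Schwann-like cells and at 91.1 and 51.9 in tenocyte-like cells. Itga11, a receptor of fibrillar collagen, was at 145 and 131 CPM in tenocyte-like and at 119 and 105 in FAP-like cells. Itga10, known from cartilage, was at 43.2 and 61.4 CPM in tenocyte-like cells and overlaps Gm42957.

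The laminin-binding subunits Itga6, Itga7 and Itga3 fell to different classes. Itga6 was at 995 and 1055 CPM in endothelial-like cells, 51.3% of their alpha subunit UMIs, and at 182 and 100 in Schwann-like cells, the next class. Itga7, the receptor of muscle cells for alpha 2 laminin, was at 203 and 168 CPM in smooth muscle or pericyte-like cells and at 55.9 and 55.8 in MuSC-like cells. Itga3 was low in every class, with at most 23.4 CPM (dendritic-like cells, vehicle). Itgb4, the partner of Itga6 in hemidesmosomes and in Schwann cells, was at 130 and 104 CPM in Schwann-like cells and at 14.7 or less in the 9 other classes ranked.

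Itgb1, which pairs with the collagen- and laminin-binding subunits except in the Itga6 and Itgb4 pair, was the most general member. It was at 1108 and 1085 CPM in smooth muscle or pericyte-like, 626 and 482 in Schwann-like and 517 and 468 in endothelial-like cells, and between 279 and 389 CPM in the 6 classes from FAP-like to T cell-like cells. B cell-like cells were lowest, at 155 and 45.4. It made up 88.6% and 88.8% of beta subunit UMIs in MuSC-like cells.

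Among the subunits that bind fibronectin, vitronectin and related proteins, Itgav was highest in Schwann-like cells (317 and 296 CPM), where its partner Itgb8, an activator of latent TGF-beta, was at 606 and 440. Of the Itgb8 level summed over the 10 classes, 86.2% was in Schwann-like cells. Itgb5, another partner of Itgav, was at 183 and 267 CPM in tenocyte-like cells. Itga8 was at 111 and 148 CPM in tenocyte-like cells, Itga5, the fibronectin receptor, at 181 and 196 in monocyte or macrophage-like cells, and Itga9 at 69.5 and 70.2 in monocyte or macrophage-like and 69.8 and 57.6 in FAP-like cells. Itgb3, Itgb6 and Itga2b, the platelet subunit, were under 30 CPM in all ranked classes.

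Leukocyte integrins separated the immune classes from the rest and from each other. Itgb2, the shared beta subunit of leukocytes, was at 154 and 156 CPM in monocyte or macrophage-like, 148 and 146 in dendritic-like and 99.6 and 176 in T cell-like cells, and at 0.512 or less in the 6 non-immune classes. Itgam was at 240 and 262 CPM in monocyte or macrophage-like cells, Itgal at 137 and 218 in T cell-like cells, and Itgax at 59.0 and 77.7 in dendritic-like cells. Itgad, the neighbor of Itgam and Itgax on chromosome 7, had 40 UMIs in all kept cells. Itga4 was at 431 and 576 CPM in T cell-like cells, and its partner Itgb7, a receptor for homing to the gut, at 231 and 253 in dendritic-like cells. Itgae, which marks a dendritic and T cell subset, was at 32.7 and 70.9 CPM in dendritic-like cells. Reads of Itgam may be shared with Gm49368 on the same strand.

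In all, 39 of the 41 members had at least 100 UMIs over all kept cells. For 31 members the same class was highest in both libraries, and for 24 its interval was apart from that of the next class in both. Tenocyte-like cells were the highest class of 8 members by the mean of both libraries, FAP-like and Schwann-like cells of 7 each, and MuSC-like cells of 0. The tenocyte-like count includes Lama1, with 10 UMIs in all kept cells, and Lamc3, and the FAP-like count includes Lamb2 and Itga2b. For these genes the highest class was not the same in both libraries.

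The most abundant members gave each class a profile. FAP-like cells had Lama2, Nid1 and Lamc1 as their highest laminins or linkers, with Itgb1 (311 and 292 CPM), Itgb5 (147 and 134) and Itga11 as their highest integrins. MuSC-like cells had Lama2, Hspg2 (189 and 199) and Lamc1 (136 and 143), with Itgb1 (351 and 375), Itgav (70.0 and 62.8) and Itga7. Tenocyte-like cells had Lama2 first, followed by Hspg2, Lamb2, Lamc1 and Nid1 between 106 and 168 CPM, and Itgb1 (371 and 388) and Itgb5. In monocyte or macrophage-like cells the highest integrins were Itgb1 (286 and 279), Itgam and Itga5 or Itga4, and in dendritic-like cells Itgb1 (300.6 and 323), Itga4 (289 and 264) and Itgb7. In both of these immune classes every laminin chain and linker but Lamc1 was at 4.61 CPM or less.

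Within the endothelial-like class the levels differed between clusters. Cluster 17, in which 7 of 7 arterial markers were at least 2-fold above the other endothelial-like cells, had 175 and 154 CPM of Lama3, against 33.04 or less in clusters 0, 2, 3 and 10. The same cluster had the lowest Hspg2, 127 and 143 CPM, and only 133 and 95.3 CPM of Lama4. Cluster 12, with 4 of 5 lymphatic and 3 of 6 venous markers, had 390 and 377 CPM of Lama4 and 876 and 1678 CPM of Itga6. Lama5 spanned 24.8 to 102 CPM over all clusters and libraries. Different clusters held most of the class in the 2 libraries: cluster 0 held 1301 and 540 cells, cluster 3 held 667 and 377, and cluster 2, which was led by interferon genes, held 70 and 976.

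**Figure D3:**
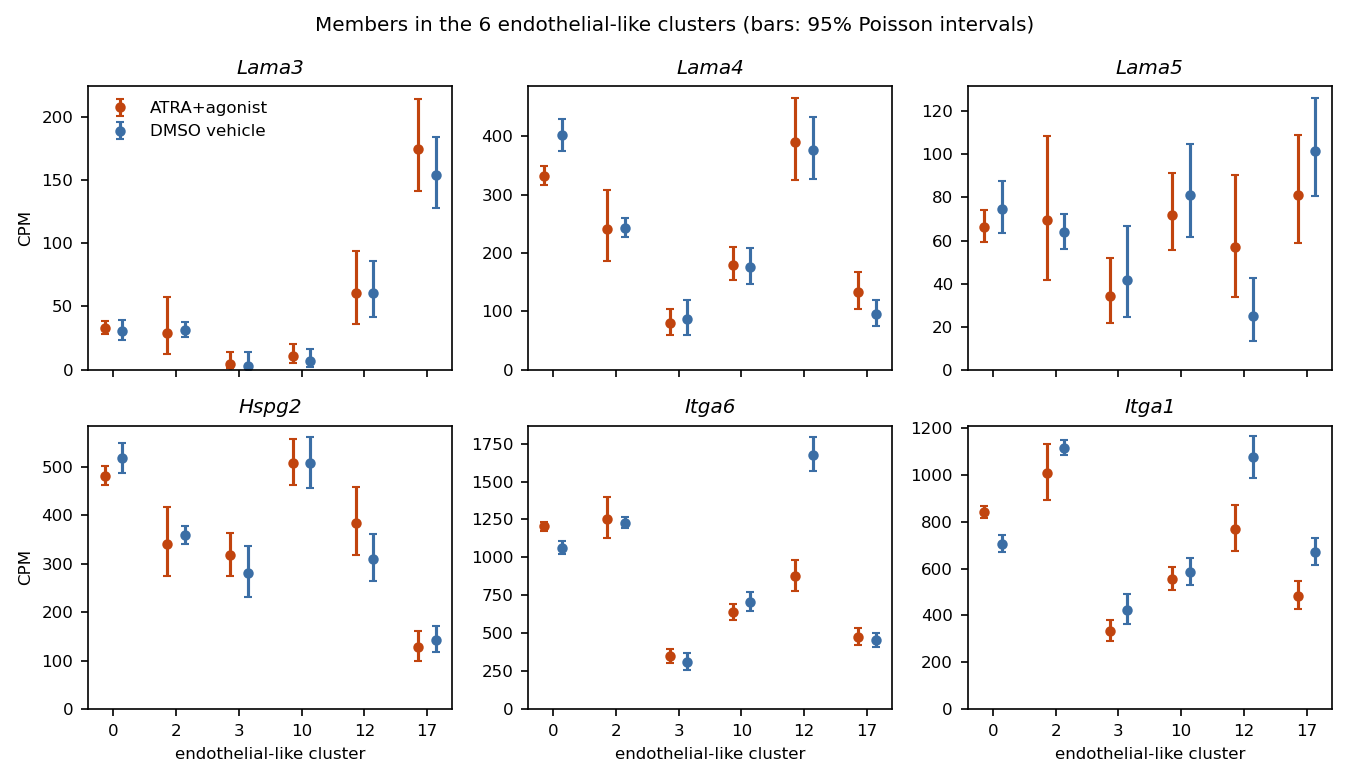
CPM (from 0) of 6 members in the 6 endothelial-like clusters for the ATRA+agonist and DMSO vehicle libraries, with 95% Poisson intervals of counting error as bars. Lama3 peaks in the arterial cluster 17, where Hspg2 is lowest, and the libraries differ most for Itga6 in cluster 12.

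The FAP-like clusters differed as well. Cluster 1, led by Cxcl14 and Mme, was highest in Lama2 (1937 and 2115 CPM), Lamb1 (360 and 320) and Hspg2 (571 and 512). Cluster 4, led by Gdf10 and Fst, had only 63.5 and 39.7 CPM of Lamb1. Cluster 11, led by Sema3c and Pi16, was highest in Nid1 (1204 and 1226) and lowest in Lama2 (691 and 676). The Schwann-like clusters separated Itga6 and Itgb4 from Itga1. Cluster 15 had 261 and 190 CPM of Itga6, 183 and 154 of Itgb4 and 282 and 303 of Itga1, while cluster 18 had 46.7 and 20.8 CPM of Itga6, 39.5 and 61.3 of Itgb4 and 851 and 889 of Itga1. At a finer clustering, chosen after these results were seen, a pericyte-led cluster had 925 and 953 CPM of Lama2 and 0 UMIs of Itga8, and a smooth muscle-led cluster had 203 and 20.6 CPM of Lama2 and 48.7 and 144.5 of Itga8.

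The libraries were compared in the 8 classes with at least 100 cells in each. A member was compared where it had at least 100 UMIs in a class, which gave 129 pairs of member and class, and it was called apart at a level 1.5-fold or more higher or lower, with no test. With ATRA+agonist 3 pairs were higher, 8 were lower and 118 were within the fold. The 11 pairs past the fold rested on 106 to 351 UMIs over both libraries, and no pair with more UMIs passed it.

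**Figure D4:**
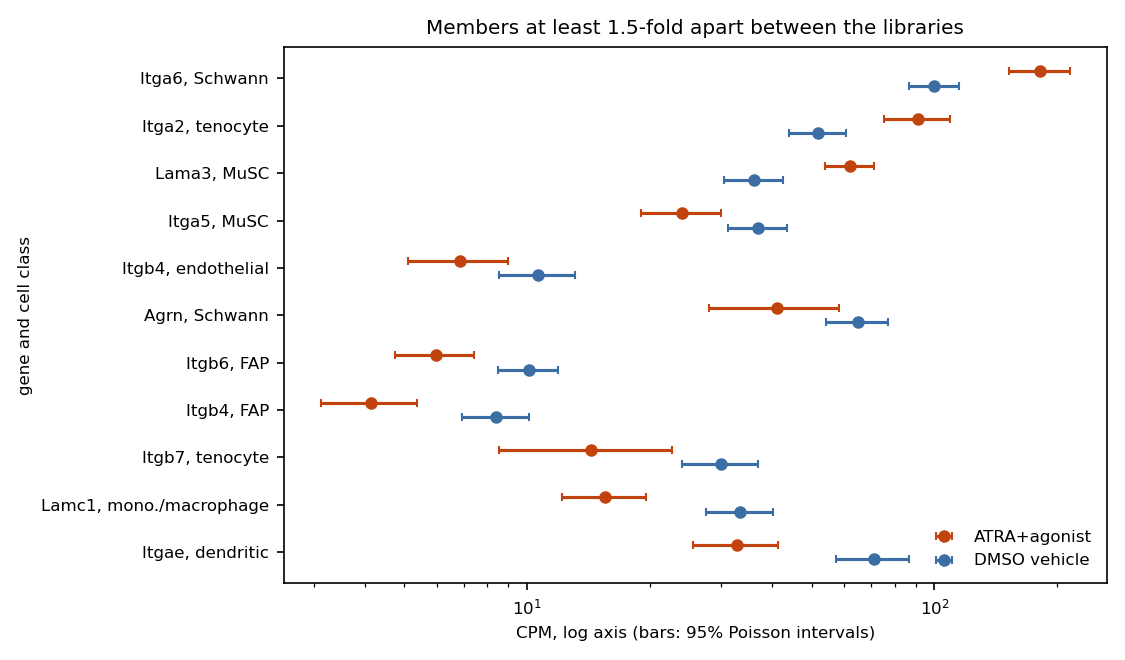
CPM on a log axis of the 11 member and class pairs that were at least 1.5-fold apart, for the ATRA+agonist and DMSO vehicle libraries, with 95% Poisson intervals of counting error as bars. The top 3 pairs are higher with ATRA+agonist, the 8 below are lower, and all 11 lie under 200 CPM.

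In FAP-like cells 26 members were compared, 0 were higher and 2 were lower, where 2.09% of all genes were higher and 4.53% lower. Itgb4 was at 4.13 CPM with ATRA+agonist and 8.41 with vehicle, a log2 ratio of -1.02 (-1.51 to -0.55). Itgb6, a subunit known from epithelia, was at 5.98 and 10.1 CPM (-0.76, -1.17 to -0.35) and was below 0 in all 3 FAP-like clusters. Both rested on few molecules, 56 and 115 UMIs for Itgb4 and 81 and 138 for Itgb6.

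Some of the abundant basement membrane genes of FAP-like cells were higher with ATRA+agonist by less than the fold. Nid2 was at 85.1 and 64.7 CPM, a log2 ratio of 0.40 (0.27 to 0.52). Lamb1 was at 243 and 198 (0.29, 0.22 to 0.37), Lama4 at 288 and 241 (0.26, 0.19 to 0.32), Hspg2 at 408 and 346 (0.24, 0.18 to 0.29) and Lamb2 at 154 and 134 (0.20, 0.11 to 0.29). Each of these 5 was above 0 in all 3 FAP-like clusters, as were Itgav, Itga9 and Itgb3 (lowest 0.00013). Itga1, with a class log2 ratio of -0.23, was below 0 in all 3, as was Itgb6. The 3 most abundant differed less. Lama2 had a log2 ratio of -0.05 (-0.08 to -0.02), Nid1 of 0.08 (0.05 to 0.12) with values below 0 in 2 of 3 clusters, and Lamc1 of 0.09 (0.04 to 0.14), with -0.17 in cluster 4. In total 12 intervals lay above 0 and 5 below. The same counts over all genes are not given here, so these cannot be read as particular to the members. The median over members was 0.09, beside 0.02 over the 11600 genes compared.

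**Figure D5:**
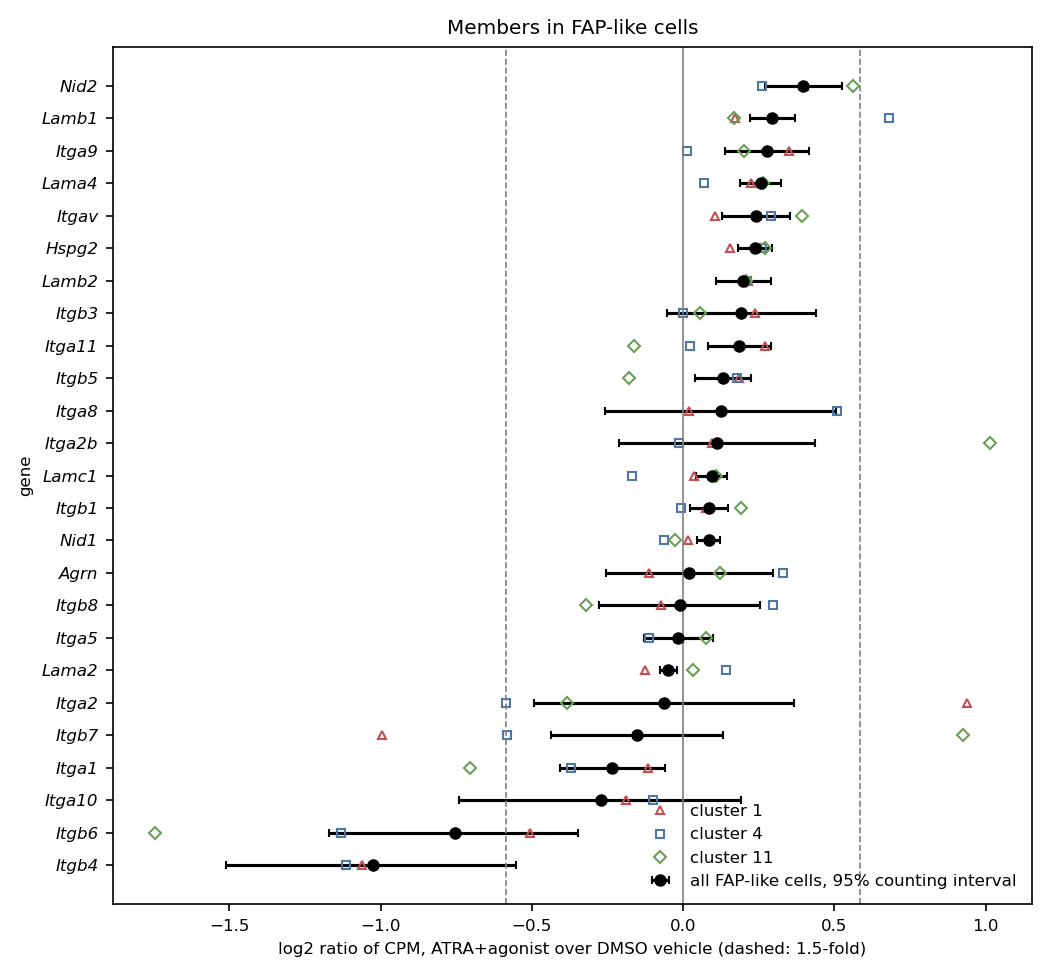
Log2 ratio of CPM, ATRA+agonist over DMSO vehicle, of 25 of the 26 members compared in FAP-like cells, with 95% counting intervals as bars and the values of clusters 1, 4 and 11 (20 or more UMIs) as open symbols; dashed lines mark 1.5-fold. Nid2, Lamb1, Lama4, Hspg2 and Lamb2 lie right of 0 in all 3 clusters, and Itgb4 and Itgb6 lie left of the fold.

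In MuSC-like cells 11 members were compared, with 1 higher (3.98% of all genes) and 1 lower (3.13%). Lama3 was at 62.2 and 36.2 CPM, from 207 and 144 UMIs in 96 and 83 cells, a log2 ratio of 0.78 (0.47 to 1.10). It was higher with ATRA+agonist in both MuSC-like clusters, with 55.6 and 35.5 CPM in the larger. Itga5 was at 24.0 and 36.9 CPM (-0.62, -1.03 to -0.22). The 6 neutrophil markers summed to 1.20 and 122 CPM in this class, with 3 and 0 of them at 0, and their part in the Itga5 value was not tested. The most abundant members had ratios near 0. Lama2 had a log2 ratio of 0.09 (0.03 to 0.14), Itgb1 of -0.09 (-0.21 to 0.02) and Itga7 of 0.00 (-0.29 to 0.29). In the larger MuSC-like cluster Lama2 was at -0.04 (-0.10 to 0.02), and in the smaller, with 64 and 40 cells, at 0.39 (0.20 to 0.58). The median over members was 0.00, beside 0.03 over all genes.

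In endothelial-like cells 21 members were compared, with 0 higher (3.85% of all genes) and 1 lower (3.5%). Itgb4 was at 6.85 and 10.6 CPM, a log2 ratio of -0.64 (-1.16 to -0.12). This value was -0.20 with the clusters weighted alike in both libraries and -0.11 with no hemoglobin filter, both within the fold. Itga1 was at 739 and 892 CPM (-0.27, -0.32 to -0.22) and was below 0 in 5 of 6 clusters. Lamb1 was at 73.9 and 55.1 CPM (0.42, 0.24 to 0.60) and was above 0 in 4 of 5 clusters with values. Nid2 was at 25.3 and 19.3 (0.39, 0.08 to 0.70), but was below 0 in 2 of 3 such clusters. Lama4, Lama5 and Agrn had intervals that included 0. The median over members, 0.06, was beside 0.08 for all genes.

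In smooth muscle or pericyte-like cells 12 members were compared and 0 passed the fold in either direction, where 4.33% of all genes were higher and 6.79% lower. Lama2 was at 836 and 681 CPM (0.30, 0.16 to 0.44), Nid1 at 362 and 290 (0.32, 0.10 to 0.54) and Itgb5 at 169 and 127 (0.42, 0.09 to 0.74). Smooth muscle markers were at 2754 and 5486 CPM in this class and pericyte markers at 15929 and 14226, and in the pericyte-led fine cluster Lama2 was at 925 and 953 CPM. Itga1 and Itgb1 differed by less than their counting intervals.

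In tenocyte-like cells 18 members were compared, with 1 higher (3.78% of all genes) and 1 lower (7.2%). Itga2 was at 91.1 and 51.9 CPM, a log2 ratio of 0.81 (0.45 to 1.17), and was at 0.35 when every cell was thinned to 1000 UMIs. Itgb7 was at 14.4 and 30.02 CPM (-1.06, -1.88 to -0.32), from 18 and 88 UMIs. Lama2 was at 625 and 910 (-0.54, -0.66 to -0.43) and Itgb5 at 183 and 267 (-0.55, -0.76 to -0.33), both just within the fold. Hspg2, in contrast, was at 148 and 106 CPM (0.48, 0.21 to 0.75). FAP markers, some of which tenocytes share, were at 19168 and 14609 CPM here.

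In Schwann-like cells 17 members were compared, with 1 higher (3.89% of all genes) and 1 lower (6.68%). Itga6 was at 182 and 100 CPM, a log2 ratio of 0.86 (0.54 to 1.18), and at 0.43 without doublet removal, which is within the fold. Agrn was at 41.1 and 64.8 CPM (-0.66, -1.27 to -0.08). Itgb8 was at 606 and 440 (0.46, 0.29 to 0.63) and Itgb1 at 626 and 482 (0.38, 0.22 to 0.54). The 9 monocyte or macrophage markers summed to 650 and 3910 CPM in cluster 18, with 4 of 9 at 0 in each library, and to 21.0 and 41.9 CPM in cluster 15. Cluster 18 held 48 of 137 and 180 of 395 Schwann-like cells. In cluster 15, which held 124 and 177 of the Itga6 UMIs, the log2 ratio was 0.45 (0.11 to 0.79), within the fold, and in cluster 18, with 13 and 22 UMIs, it was 1.17 (0.06 to 2.22). Itgb8 was at 780 and 731 CPM in cluster 15 (0.09, -0.09 to 0.28). In cluster 18 Itgb8 was at 309 and 185 CPM (0.74, 0.36 to 1.11). Itgb1 was at 0.48 (0.26 to 0.70) in cluster 15 and at 0.29 (0.03 to 0.54) in cluster 18. The part of the cluster shares and of the monocyte or macrophage markers in the class values was not tested.

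In monocyte or macrophage-like cells 13 members were compared, with 0 higher (2.07% of all genes) and 1 lower (2.4%). Lamc1 was at 15.6 and 33.3 CPM, a log2 ratio of -1.10 (-1.54 to -0.66), from 73 UMIs in 49 cells and 113 UMIs in 64 cells. In free RNA Lamc1 was at 10.8 and 12.6 CPM. The 12 integrin subunits, Itgam, Itgb2, Itga4 and Itga5 among them, were within the fold. In dendritic-like cells 11 members were compared, with 0 higher (4.1% of all genes) and 1 lower (4.08%). Itgae was at 32.7 and 70.9 CPM (-1.12, -1.58 to -0.66), and 10 cells held 69.0% and 67.0% of its UMIs. Itgal (-0.53, -0.97 to -0.08), Itgam (-0.32, -0.61 to -0.02) and Itgax (-0.40, -0.78 to -0.01) were also lower by less than the fold. The median over members was -0.32, beside 0.00 for all genes.

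Cells that resemble the perineurium, the sheath around nerve bundles, carried much of the Itgb4 in the vehicle library. In the finer clustering a cluster with 8 of 8 perineurial markers held 84 and 143 cells, of which 7 and 71 had 3 or more of these markers. It held 13 of 256 Itgb4 UMIs of the ATRA+agonist library (5.08%) and 328 of 819 of the vehicle library (40.05%). Its Itgb4 level was 70.0 and 656 CPM and its Itga6 level 59.2 and 1219 CPM. The lower class values of Itgb4 in FAP-like and endothelial-like cells with ATRA+agonist stand beside these values. The part of this cluster in them was not tested.

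Genes that work with the members were taken from 4 lists, chosen with earlier results of these data known. Their counts stand beside the shares of all genes given for each class above, which ran from 2.07% to 4.33% higher and from 2.4% to 7.2% lower. Ratios of these genes are of whole classes, and the part of unequal cluster shares in them was not tested. Of 19 collagens and other proteins of the basement membrane, 13 were compared in FAP-like cells, with 3 higher and 0 lower (2.09% and 4.53% of all genes) and a median log2 ratio of 0.38. Col4a6 was at 12.4 and 7.24 CPM (0.78), Col4a5 at 60.0 and 36.6 (0.71) and Sparc, a collagen-binding protein, at 1514 and 1004 (0.59). The interval was above 0 for 10 of these 13, a count with no share of all genes beside it. The median of this list was 0.36 in endothelial-like cells (8 genes), 0.35 in Schwann-like cells (9 genes), 0.32 in the smooth muscle or pericyte-like class (8 genes), 0.17 in MuSC-like cells (10 genes) and -0.09 in tenocyte-like cells (8 genes), beside medians over all genes of -0.02 to 0.08. In endothelial-like cells 0 of them were higher and 2 lower, Col18a1 (6.58 and 12.1 CPM, -0.87) and Tinagl1 (287 and 498, -0.79). In MuSC-like cells Col4a6 (48.6 and 25.9 CPM, 0.91) and Frem1 (73.0 and 42.2, 0.79) were higher, as were, in the smooth muscle or pericyte-like class, Col15a1 (100.8 and 27.5, 1.87) and Egflam (626 and 357, 0.81). Schwann-like cells had Sparc (0.78) and Egflam (1.03) higher and Tinagl1 (-1.61) lower, and tenocyte-like cells had Sparc (1.11) and Ntn4 (0.60) higher.

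The next list held 17 ligands of integrins other than laminins. In FAP-like cells 15 were compared, with 0 higher and 5 lower (2.09% and 4.53% of all genes) and a median of -0.14. Tnc, a tenascin of tissue under repair, was at 3.84 and 13.3 CPM (-1.79), Spp1 at 10.0 and 21.9 (-1.13) and Postn at 44.6 and 97.1 (-1.12). Thbs1 (126.5 and 255 CPM, -1.01) and Ccn2 (103 and 202, -0.98) were the other two. In endothelial-like cells 3 of 10 were lower (3.5% of all genes) and 0 higher, led by Vcam1 (20.8 and 85.8 CPM, -2.04), the ligand of the Itga4 and Itgb1 pair, with Thbs1 (-1.53) and Ccn2 (-0.64). The interferon-led cluster 2 held 70 and 976 cells of this class, and its part in these values was not tested. In MuSC-like cells 2 of 10 were higher and 2 lower, with Postn (10.5 and 43.5 CPM, -2.05), Tnc (34.2 and 100.98, -1.56), Ccn1 (188 and 95.45, 0.98) and Thbs2 (47.4 and 31.4, 0.60). The smooth muscle or pericyte-like class had 1 of 7 higher, Vtn (1402 and 835, 0.75), and 2 lower, Tnc (4.43 and 78.8, -4.15) and Thbs1 (34.3 and 112, -1.71). Tnc rested on 4 and 103 UMIs there, with a wide interval (-6.06 to -2.75). In monocyte or macrophage-like cells 2 of 7 were lower, Vcam1 (-1.02) and Mfge8 (-0.73). Tenocyte-like cells had Postn higher (272 and 139.5 CPM, 0.96) and Ccn2 lower (459 and 1397, -1.61) among 13, and dendritic-like cells had 2 of 4 higher, Fn1 (130 and 61.8, 1.07) and Spp1 (41.5 and 19.6, 1.08). Of 6 in Schwann-like cells 1 was higher, Ccn1 (0.94), and 1 lower, Tgfb1 (-0.60). The Tgfb1 ratio rested on 24 and 96 UMIs, and its interval, -1.31 to 0.06, included 0.

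The remaining lists were the dystroglycan complex with other laminin or agrin receptors (17 genes) and the integrin adaptors (28 genes). Of the receptors 0 of 10 passed the fold in endothelial-like and 0 of 4 in monocyte or macrophage-like cells. In MuSC-like cells 3 of 13 were higher and 0 lower (3.98% and 3.13% of all genes), Sgca (23.4 and 12.3 CPM, 0.93), Sntb1 (79.9 and 49.7, 0.68) and Bcam (20.1 and 13.3, 0.60). In FAP-like cells 2 of 14 were lower, Sntb1 (-0.62) and Musk (-0.59), the receptor through which agrin acts. In smooth muscle or pericyte-like cells 1 of 8 was higher, Lrp4 (82.0 and 35.2 CPM, 1.22), the agrin co-receptor, and 1 lower, Dmd (671 and 1434, -1.10), dystrophin. Smooth muscle markers were at 2754 and 5486 CPM in this class. The part of this mix of cells in its values for all 4 lists was not tested. Tenocyte-like cells had 2 of 11 higher and 0 lower, Dmd (51.2 and 24.2 CPM, 1.08) and Lrp4 (52.8 and 32.8, 0.69). Dendritic-like cells had 1 of 2 lower, Sntb2 (20.7 and 51.3, -1.31), and Schwann-like cells had 0 of 11 past the fold. Of the adaptors 0 passed in endothelial-like (22 genes), FAP-like (23) and MuSC-like cells (18). In smooth muscle or pericyte-like cells 3 of 16 were lower, Flna (-0.78), Actn1 (-0.75) and Tns2 (-0.67), beside the lower smooth muscle markers given above, and in monocyte or macrophage-like cells 1 of 18 was lower, Ptk2 (-0.61). One adaptor was higher in each of 3 other classes: Itgb1bp1 in tenocyte-like (0.70, 1 of 17), Tln2 in Schwann-like (0.66, 1 of 17) and Ptk2b in dendritic-like cells (0.82, 1 of 15).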

How the data were processed

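Per the labels and the file header, the deposited counts are whole numbers of UMIs per gene and barcode, made by the authors with Cell Ranger 7.2.0 against mm10 (GRCm38). The annotation release and whether intronic reads were counted are not given in the sources used here, and genes with long introns, such as Lama2, could gain from them. The values are not normalized. Depth was 65197625 UMIs in 10444 barcodes (ATRA+agonist) and 109343486 in 17394 (DMSO vehicle), so that 100 UMIs in a class give a ratio only a wide counting interval.

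Cells with 300 to 5000 genes, under 20% mitochondrial and under 0.25% hemoglobin beta UMIs were kept, and the 7.5% with the highest scores against artificial doublets were removed. Counts were scaled to 10000 per cell, and 2000 variable genes without the members and linked lists gave 30 components. With 20 neighbours these gave Louvain (multilevel) clusters at resolution 0.8 (Python 3.11.15, scikit-learn 1.9.0, igraph 0.11.9). A cluster was named from at least 3 markers 2-fold above the other cells. Mast-like and perineurial-like cells share 1 unnamed cluster. Raw counts were summed per class and library (pandas 2.3.3, numpy 2.4.6). With 1 library per group there was no test: ratios carry exact binomial intervals and levels exact Poisson intervals at 95% (scipy 1.17.1). The computation was tested on simulated data.

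Members were ranked over classes with 50 or more cells per library and compared with at least 100 cells per library and 100 UMIs. Named were members past 1.5-fold, the highest class of each member, the 3 laminins or linkers and 3 integrins of highest CPM per class, and, in 5 main classes, at most 3 genes past the fold per linked list. Other linked genes, and members within the fold given with a ratio, were chosen after their values were seen. The members and all gene lists were chosen with earlier results of these data known, as were the promoter motifs, the perineurial check and the free RNA reference. Alternatives changed the cell filters, doublet removal, clustering, naming of cells, cluster weights, depth, the UMI minimum, the fold and the subtraction of a B cell level. Values of 1 member are not reported here, although the counts over members include it.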

Additional observations from a re-analysis of the deposited data

Results flagged for a closer look

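Itga6 had class values of opposite sign. Its log2 ratio (ATRA+agonist over DMSO vehicle) was 0.86 in Schwann-like cells and -0.084 in endothelial-like cells, with counting intervals on opposite sides of 0. Within the endothelial-like class, however, it was above 0 in 4 of 6 clusters and below 0 in 2, and the libraries filled these clusters differently. Lamc1 was likewise at 0.18 in endothelial-like cells and at -1.10 in monocyte or macrophage-like cells, and in the endothelial-like clusters it was above 0 in 3 and below 0 in 3. With 1 library per group, neither difference between classes was tested.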

How the results depend on the processing

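No paired analysis was possible because each group is 1 library. Of 118 recomputed ratios of single members past the fold, 112 stayed within the counting interval, 0 changed direction and 6 moved: Itga6 in Schwann-like cells to 0.43 with no doublet removal, Itgb4 in endothelial-like cells to -0.11 with no hemoglobin filter, and, with cells thinned to 1000 UMIs, Itgb6 in FAP-like cells to -1.57, Itga2 and Itgb7 in tenocyte-like cells to 0.35 and -1.90, and Lamc1 in monocyte or macrophage-like cells to -2.63. The cause was not tested.

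The number of pairs past the fold depended on the limits. Pairs higher with ATRA+agonist (3) became 6 with no hemoglobin filter, 5 at a mitochondrial limit of 10%, 9 at a minimum of 20 UMIs, 0 at a minimum of 400 UMIs and 0 at a fold of 2. Pairs lower (8) became 1 in thinned cells, 31 at 20 UMIs, 0 at 400 UMIs and 4 at a fold of 2. The numbers of pairs compared and the shares of all genes at these settings are not given here. The counts, also those by class below, therefore show only how far the calls depend on the limits, not a direction of the members. Thinning leaves fewer UMIs, so that fewer pairs reach the minimum of 100, and of the 11 ratios all but those of Itga2 (0.35) and Agrn (-0.57) kept a size past the fold there. The 0 at 400 UMIs follows from the 106 to 351 UMIs of the 11 pairs. By class, the number past the fold moved as follows. With no doublet removal it was 0 in endothelial-like, 2 in smooth muscle or pericyte-like, 0 in Schwann-like, 3 in monocyte or macrophage-like and 2 in dendritic-like cells. With no hemoglobin filter it was 0 in endothelial-like and 4 in Schwann-like cells, and the mitochondrial limit of 10% also gave 4 in Schwann-like cells. It was 0 in endothelial-like cells at a minimum of 500 genes and at resolution 1.6. It was 2 in monocyte or macrophage-like cells at resolution 0.4 and 3 with cells assigned by their own markers. In dendritic-like cells it was 2 at resolution 1.6, with members kept for clustering and with own markers. Equal cluster weights gave 1 in Schwann-like cells. Thinning gave 1 in tenocyte-like cells and 0 in endothelial-like, MuSC-like, Schwann-like, monocyte or macrophage-like and dendritic-like cells. At 20 UMIs it was 3 in endothelial-like, 5 in FAP-like, 8 in MuSC-like, 5 in smooth muscle or pericyte-like, 9 in tenocyte-like, 5 in Schwann-like, 3 in monocyte or macrophage-like and 2 in dendritic-like cells. At 400 UMIs it was 0 in each of these classes, and at a fold of 2 it was 1 in FAP-like and tenocyte-like and 0 in endothelial-like, MuSC-like and Schwann-like cells. Classes that could not be named under a setting have no value there.

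Shares moved as well: Lama2 in FAP-like cells (84.8%) to 84.4% with no doublet removal and 83.9% at resolution 1.6, Lama2 in the smooth muscle or pericyte-like class (82.0%) to 77.0% with no doublet removal, Itga6 in endothelial-like cells (51.3%) to 50.7% with no doublet removal and 52.0% with the B cell level subtracted, Itga1 in the smooth muscle or pericyte-like class (72.4%) to 67.2% and 78.1% in that order, and Itgb2 in monocyte or macrophage-like cells (27.5%) to 30.4% with no doublet removal, 25.2% and 22.8% at resolutions 0.4 and 1.6, 29.5% with own markers and 35.4% with the B cell level subtracted.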

Other observations

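The B cell-like clusters differed in their members. Cluster 9, led by Ighd, had 241 and 198 CPM of Lamb3 and 38.7 and 36.7 CPM of Itgb1 (ATRA+agonist and DMSO vehicle). Cluster 20, led by Igkc and Jchain, genes of antibody-secreting cells, had 94.8 and 20.96 CPM of Lamb3 and 337 and 50.3 CPM of Itgb1. In the vehicle library Itgb1 had 5 UMIs in cluster 9 and 12 in cluster 20, and the intervals (11.9 to 85.6 and 26.0 to 87.9 CPM) overlapped. Lamb3 had 5 UMIs in cluster 20 of that library. The vehicle library held only 27 and 37 cells of these clusters, so that B cell-like cells were not compared between libraries.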
